A study of Mus musculus with 132 samples.

Results

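The FGF ligands, receptors and feedback inhibitors described here were 10 genes, taken by name from a count table of 25146 genes, in which all 10 had a row. They were the secreted ligands Fgf4, Fgf5, Fgf8 and Fgf15, the receptors Fgfr1 and Fgfr2, and the feedback inhibitors Spry1, Spry2, Spry4 and Dusp6. Their counts came from 23 libraries of poly(A)-minus RNA-seq, which sequences RNA without a poly(A) tail and so captures transcripts still being made, intron sequence included. A further 84 genes of the FGF pathway in the same table were counted for comparison.

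FGF ligands are secreted proteins that bind receptor tyrosine kinases together with heparan sulfate on the cell surface. The activated receptor recruits adaptors that switch on RAS, RAF, MEK and the kinase ERK. ERK signalling in turn induces genes that damp it, among them the Sprouty genes, whose proteins act between receptor and RAF, and Dusp6, whose phosphatase inactivates ERK in the cytoplasm. In mouse embryonic stem cells (mESCs), FGF4 made by the cells themselves moves them out of the naive state, and at gastrulation FGF8 and FGFR1 are needed for mesoderm to leave the primitive streak. FGF signalling also acts before blood is specified from mesoderm, and basic FGF is commonly supplied to cultures that make blood.

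All cells derived from the mESC line E14-TG2a. Undifferentiated wild-type mESCs (day 0) were grown in serum with LIF and gave 2 libraries, both with the label E14. They are labelled technical replicates of a single biological replicate, whereas the paper describes 2 independent experiments for the undifferentiated cells. Mesoderm was sorted for Flk1, the VEGF receptor, from embryoid bodies at day 4, after BMP-4 throughout and bFGF with Activin A shortly before the sort. Hematopoietic progenitor cells (HPCs) were sorted for CD41 at day 7, after the Flk1+ cells had been cultured on with SCF and VEGF. The 3 genotypes sorted at these stages were wild type (clones C6.1, C8.1 and B9.3, with 3 mesoderm and 4 HPC libraries), P1-CTCF-KO (clones E7.1, E7.2 and E9.1, with 3 and 3), in which the CTCF site beside the P1 promoter of Runx1 is deleted, and P2-CTCF-KO (clones D2.1, D10.1 and another clone named E9.1, with 3 and 5), in which the site beside the P2 promoter is deleted. The mutant clones are sub-clones grown from single colonies, several of them from a shared targeting event, and second HPC libraries of B9.3, D10.1 and D2.1 are named B9.3-2, D10.1-2 and D2.1-2. The counting covered exons and introns, with a strand setting not given in the sources used here, and Fgf8 and Fgfr1 overlap other entries whose reads could not be told apart from theirs. The count table holds only totals per gene, so it offers no check of the genotypes.

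Libraries held from 7805102 to 24406998 counts, of which entries of ribosomal RNA or of several loci took from 68.1% to 76.3% in mESCs and from 87.8% to 91.0% in the later stages. Levels are given as CPM, counts relative to library size with edgeR's TMM factors over all 23 libraries. On this scale 1 count was worth from 0.00546 to 0.00981 CPM in mESCs, from 0.0412 to 0.121 CPM in mesoderm and from 0.0698 to 0.203 CPM in HPCs, so low levels were resolved far less finely after day 0. Kdr, which encodes Flk1, ranged from 0.0928 to 0.108 CPM in mESCs, from 16.9 to 39.1 CPM in mesoderm and from 2.76 to 18.1 CPM in HPCs. Itga2b, which encodes CD41, ranged from 0.0294 to 0.0491 CPM in mESCs, from 0.188 to 1.71 CPM in mesoderm and from 10.04 to 79.2 CPM in HPCs, so the groups followed the sorts. Depletion of ribosomal RNA is described for undifferentiated mESCs and not for mesoderm or HPCs, so stage and library preparation cannot be told apart in any comparison with mESCs. The mESC libraries carry none of the clone names of the later stages, so clone is confounded with stage in these comparisons as well. In bulk samples such as these, fewer cells of a type and less RNA per cell cannot be told apart either.

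Fgf4 and Fgf5 marked the undifferentiated cells and were absent from the wild-type counts of later stages. Fgf4 (chr7:152047290-152051150 in mm9) stood at 3.90 and 4.43 CPM in the 2 mESC libraries, and none of the 3 mesoderm or 4 HPC libraries of wild-type cells had a count of it. In mesoderm it was at least 57.4-fold lower than in mESCs, with the floor set at 3 counts over the group (edgeR adjusted p = 0.000365). The mutant cells were close to this floor, with 3 counts over the P1-CTCF-KO mesoderm libraries (0.0584 CPM in E7.1 and 0.0823 CPM in E7.2) and 1 count in the P2-CTCF-KO HPC library D2.1. Fgf5, a ligand gene that is switched on as naive cells become primed epiblast and is later silenced, was lower from the start at 0.579 and 0.422 CPM in mESCs. It had no count in wild-type mesoderm or HPCs, at least 7.33-fold lower in mesoderm (edgeR adjusted p = 0.00864). DESeq2 did not call that fall (adjusted p = 0.144), and edgeR lost it when either mESC library was left out. Outside the wild-type cells, Fgf5 had 2 counts in P1-CTCF-KO mesoderm and 9 in P2-CTCF-KO mesoderm, 8 of which lay in clone D10.1 at 0.551 CPM. A further 6 counts were found in the P2-CTCF-KO HPC library D2.1, at 0.419 CPM. The count in P2-CTCF-KO mesoderm was at least 3.26-fold above the wild-type floor, in a gene with too few counts to be tested there.

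Fgf8 and Fgf15, unlike Fgf4 and Fgf5, had counts in wild-type mesoderm, and neither had a count in wild-type HPCs. Fgf8 (chr19:45811287-45817374), the ligand of the primitive streak, was barely detected in mESCs at 0.0491 and 0.0392 CPM. Wild-type mesoderm had 0.243 CPM in C6.1, 0.0601 CPM in C8.1 and 0.0581 CPM in B9.3, from 4 counts in all. In P1-CTCF-KO mesoderm the level was 0.175 CPM in E7.1, 0.494 CPM in E7.2 and 0.263 CPM in E9.1. P2-CTCF-KO mesoderm held the highest values of the series, 1.22 CPM in D2.1, 1.17 CPM in D10.1 and 0.592 CPM in E9.1, each above every wild-type and P1-CTCF-KO library. No HPC library of wild-type or P1-CTCF-KO cells had a count of Fgf8, whereas D2.1 and D10.1 of P2-CTCF-KO HPCs had 5 counts and 1 count. With 4 counts in wild-type mesoderm, the wild-type difference was bounded only at 1.32-fold or more, so a fall of Fgf8 was not resolved there. Fgf15 (chr7:152082436-152086856), whose product acts as a hormone of the gut in the adult and is made in the embryonic nervous system, was about level between mESCs (0.420 and 0.373 CPM) and wild-type mesoderm (0.607 CPM in C6.1, 0.421 CPM in C8.1 and 0.116 CPM in B9.3), with a log2 fold change of -0.21 and an interval from -1.52 to 1.09. P1-CTCF-KO mesoderm ranged from 0.394 to 0.875 CPM and P2-CTCF-KO mesoderm from 0.0938 to 0.814 CPM, so the genotypes overlapped. None of the 12 HPC libraries had a count of Fgf15. Against mesoderm this was at least 4.61-fold lower in wild-type HPCs (edgeR adjusted p = 0.0167, and 0.0574 without the mesoderm library C8.1), at least 4.61-fold lower in P1-CTCF-KO and at least 6.48-fold lower in P2-CTCF-KO HPCs, the latter differences being untested because Fgf15 did not pass the filter in that fit.

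**Figure D1:**
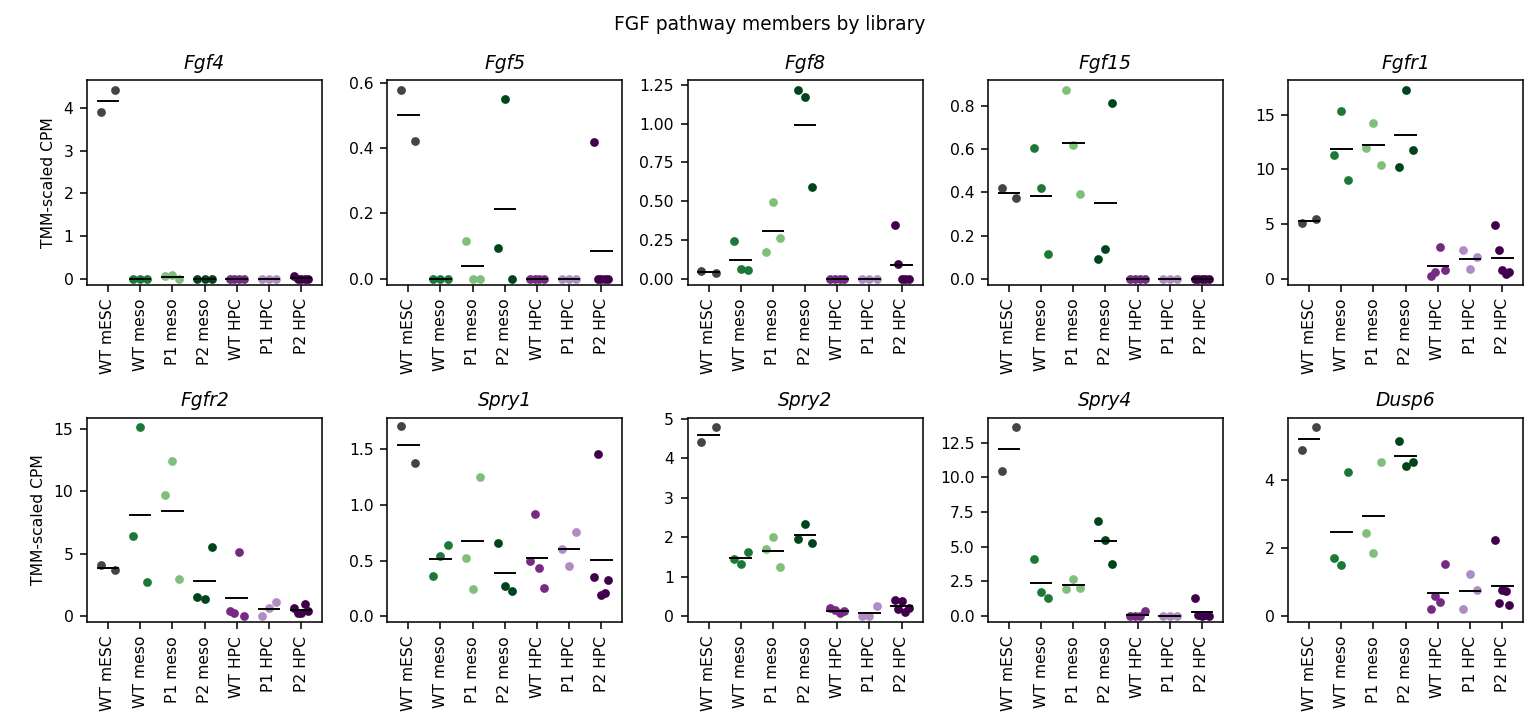
Level of each of the 10 genes in every library, in TMM-scaled CPM on a linear axis of its own, by genotype and stage (points are libraries, bars are group means). Fgf4 is high in mESCs alone, Fgf15 is at 0 in all 12 HPC libraries, Fgfr1 is highest in mesoderm, and Fgf8 and Spry4 reach their highest mesoderm levels in P2-CTCF-KO.

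Fgfr1 was highest in mesoderm and fell between mesoderm and HPCs, whereas Fgfr2 varied widely between clones of a stage. Fgfr1 (chr8:26629230-26686190) encodes the receptor that relays FGF4 and FGF8 signals in the early embryo. Its level was 5.07 and 5.42 CPM in mESCs, then 11.3 CPM in C6.1, 15.3 CPM in C8.1 and 9.01 CPM in B9.3 of wild-type mesoderm. All mesoderm libraries lay above the mESC libraries, but the log2 fold change of 1.17 ± 0.53 (SE) was not called (edgeR adjusted p = 0.118). In wild-type HPCs, Fgfr1 had 0.296 CPM in C6.1, 0.583 CPM in C8.1, 2.92 CPM in B9.3 and 0.768 CPM in B9.3-2. Every HPC library lay below every mesoderm library, with a log2 fold change of -3.34 ± 0.51 (SE), or 10.11-fold lower (edgeR adjusted p = 0.000603). Library B9.3 set much of this value, and without it the log2 fold change was -4.44. Fgfr2 (chr7:137305964-137410322), a receptor needed in the placenta and in limb and lung buds, stood at 4.08 and 3.73 CPM in mESCs. In wild-type mesoderm it spread from 2.73 CPM in B9.3 through 6.43 CPM in C6.1 to 15.1 CPM in C8.1, a range that took in the mESC values (edgeR adjusted p = 0.440). Wild-type HPCs had 0.394 CPM in C6.1, 0.250 CPM in C8.1 and no count in B9.3-2, but 5.15 CPM in B9.3, from 60 counts. With that library the difference between mesoderm and HPCs had a log2 fold change of -2.41 ± 0.89 (SE) and was not called (edgeR adjusted p = 0.0644). Without it the change was -5.10 and was called (edgeR adjusted p = 0.000337), as it was without the mesoderm library B9.3 (adjusted p = 0.0232) and without a filter on low counts (adjusted p = 0.000307). The libraries B9.3 and B9.3-2 carry the same clone name, and their Fgfr2 levels of 5.15 and 0 CPM lay at opposite ends of the group.

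The Fgfr1 promoter kept an open site in both later stages. ATAC-seq, which cuts accessible DNA with a transposase, gave 1 peak list for wild-type mesoderm and 1 for wild-type HPCs, each called by the authors on merged libraries and so without replicates. The cells assayed were of the reporter line and not of the clones used for RNA. A promoter peak here means a peak that overlaps the 1000 bp on either side of the gene's 5′ end. The stretch of the Fgfr1 mesoderm peak that lies before the gene's start is shown because the gene's RNA fell 10.11-fold while most of this stretch was also in the HPC list. The line gives mm9 sequence at chr8:26629116-26629230, plus strand, 5′ to 3′, with the 104 of 115 bases that also lie inside an HPC peak in capitals.
Fgfr1: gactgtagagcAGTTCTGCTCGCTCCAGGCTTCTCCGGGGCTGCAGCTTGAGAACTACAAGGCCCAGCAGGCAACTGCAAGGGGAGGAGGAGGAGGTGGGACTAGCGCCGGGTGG

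The feedback inhibitors Spry2 and Spry4 fell at each step from mESCs to HPCs, Dusp6 fell between mesoderm and HPCs, and Spry1 fell between mESCs and mesoderm and differed little after it. Spry2 (chr14:106291163-106296036), which like Spry4 is commonly read as a target of FGF signalling in the embryo, stood at 4.41 and 4.80 CPM in mESCs. Wild-type mesoderm had 1.46 CPM in C6.1, 1.32 CPM in C8.1 and 1.63 CPM in B9.3, a narrow range below both mESC libraries (log2 fold change -1.65 ± 0.26 SE, edgeR adjusted p = 0.00105). HPCs then held 0.197, 0.167, 0.0859 and 0.128 CPM in C6.1, C8.1, B9.3 and B9.3-2, from 6 counts in all. This second fall was 10.02-fold (log2 fold change -3.33 ± 0.37 SE, edgeR adjusted p = 8.018e-05), and no HPC library reached a mesoderm library. Spry4 (chr18:38745900-38761001) had the highest CPM of the 10 genes in mESCs, 10.4 and 13.6. Mesoderm of wild-type cells held 4.13 CPM in C6.1, 1.74 CPM in C8.1 and 1.34 CPM in B9.3. The fall of 5.32-fold was called (log2 fold change -2.41 ± 0.50 SE, edgeR adjusted p = 0.00513), although not without the second mESC library (adjusted p = 0.0679). In wild-type HPCs, Spry4 had 3 counts, all in B9.3-2 at 0.384 CPM, and none in C6.1, C8.1 and B9.3. Against 86 counts in mesoderm this was a ratio of 28.3 with a counting interval from 9.38 to 140.1 (edgeR adjusted p = 0.00108).

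Dusp6 (chr10:98725864-98730123) encodes the phosphatase that strips ERK of its activating phosphates. It stood at 4.87 and 5.56 CPM in mESCs and at 1.70 CPM in C6.1, 1.503 CPM in C8.1 and 4.24 CPM in B9.3 of wild-type mesoderm. The B9.3 library was nearly as high as mESCs, and the change was not called (log2 fold change -1.04 ± 0.49 SE, edgeR adjusted p = 0.135). Wild-type HPCs ranged from 0.197 CPM in C6.1 through 0.429 CPM in B9.3 and 0.583 CPM in C8.1 to 1.53 CPM in B9.3-2. That last library lay within the mesoderm range, and the group as a whole was lower by a log2 fold change of -1.98 ± 0.54 (SE, edgeR adjusted p = 0.0171). Without the mesoderm library B9.3 the call was lost (log2 fold change -1.31, adjusted p = 0.0795), and without the HPC library B9.3-2 the change was -2.62. Spry1 (chr3:37538868-37543521), a Sprouty gene best known for limiting FGF and GDNF signals in kidney and muscle, had 1.71 and 1.37 CPM in mESCs and 0.364 CPM in C6.1, 0.541 CPM in C8.1 and 0.639 CPM in B9.3 of mesoderm (log2 fold change -1.52 ± 0.41 SE, edgeR adjusted p = 0.0182). The Spry1 call was the least stable of the falls, since it was lost in 5 of the alternatives, with adjusted p up to 0.159. In HPCs the level was 0.493 CPM in C6.1, 0.917 CPM in C8.1, 0.429 CPM in B9.3 and 0.256 CPM in B9.3-2, around that of mesoderm. The log2 fold change of 0.02 had an interval from -0.97 to 1.01, so that changes of more than about 2-fold in either direction lay outside it.

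Promoter peaks of the 3 feedback inhibitors below show how the open site behaved where the RNA fell (Spry2 and Dusp6) and where no change was called (Spry1). Each is the mesoderm peak outside annotated exons, in mm9, 5′ to 3′ on the gene's strand, with bases also inside an HPC peak in capitals. They lie at chr14:106296476-106296748 (minus strand) for Spry2, chr10:98725612-98725864 for Dusp6 and chr3:37538791-37538868 for Spry1.
Spry2: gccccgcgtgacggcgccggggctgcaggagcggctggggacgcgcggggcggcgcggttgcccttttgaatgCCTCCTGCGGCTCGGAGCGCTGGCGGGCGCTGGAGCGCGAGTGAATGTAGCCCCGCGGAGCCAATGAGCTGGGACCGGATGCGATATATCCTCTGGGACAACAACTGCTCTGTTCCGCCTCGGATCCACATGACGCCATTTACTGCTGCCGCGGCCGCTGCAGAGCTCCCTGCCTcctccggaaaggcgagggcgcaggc
Dusp6: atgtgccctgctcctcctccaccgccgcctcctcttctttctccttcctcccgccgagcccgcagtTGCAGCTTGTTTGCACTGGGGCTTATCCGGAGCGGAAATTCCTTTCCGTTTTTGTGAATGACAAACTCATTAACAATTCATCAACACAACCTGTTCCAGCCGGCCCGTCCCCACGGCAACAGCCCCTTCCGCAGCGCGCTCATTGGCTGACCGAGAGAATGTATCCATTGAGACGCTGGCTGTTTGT
Spry1: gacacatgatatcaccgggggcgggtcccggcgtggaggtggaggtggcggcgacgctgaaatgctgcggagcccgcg
Of the Spry2 stretch, 175 of 273 bases were also in the HPC list, and of the Dusp6 stretch 187 of 253. None of the 78 bases at Spry1 lay in an HPC peak. Spry1 RNA was thus at a similar level in HPCs without a listed promoter peak, and Spry2 RNA was 10.02-fold lower with the peak still listed. For Spry4 and Fgf15, whose RNA was also lower in wild-type HPCs, the promoter peak was in the mesoderm list and not in the HPC list. The HPC list is shorter than the mesoderm list (29037 against 76766 peaks), and whether Spry1 fell below the limit of the shorter list was not tested. The paper merged fewer libraries, from fewer experiments, for the HPC list than for the mesoderm list. A peak missing from the HPC list therefore cannot be told apart from a difference in input.

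By calls, 5 of the 9 members tested were lower in wild-type mesoderm than in mESCs (Fgf4, Fgf5, Spry1, Spry2 and Spry4) and none was higher, where 13.6% of the 12899 genes tested were called lower and 10.8% higher. A call here required an adjusted p under 0.05 in edgeR (quasi-likelihood test, Benjamini-Hochberg over all genes tested) and an absolute log2 fold change over 1. Fgf4, Fgf5 and Fgf15 passed the filter on low counts through the mESC libraries, and Fgf8 did not pass. The all-gene median of -0.18 in this comparison moved to 0.01 with DESeq2, a shift smaller than any of the called member changes. The calls also rested on 2 mESC libraries that are labelled technical replicates, so they may not measure the spread between cultures. With these libraries summed to 1 sample, the log2 fold changes were -1.585 for Spry1 and -2.347 for Spry4. From wild-type mesoderm to HPCs, 5 of 9 members tested were lower (Fgf15, Fgfr1, Spry2, Spry4 and Dusp6) and none was higher, against 12.5% of genes called lower and 10.8% higher. Those 9 include Fgf4 and Fgf5, which had no count in either stage. Spry2 and Spry4 passed the filter through the stages before HPCs, which leaves more room for a fall than for a rise. Both steps use the same 3 mesoderm libraries.

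**Figure D2:**
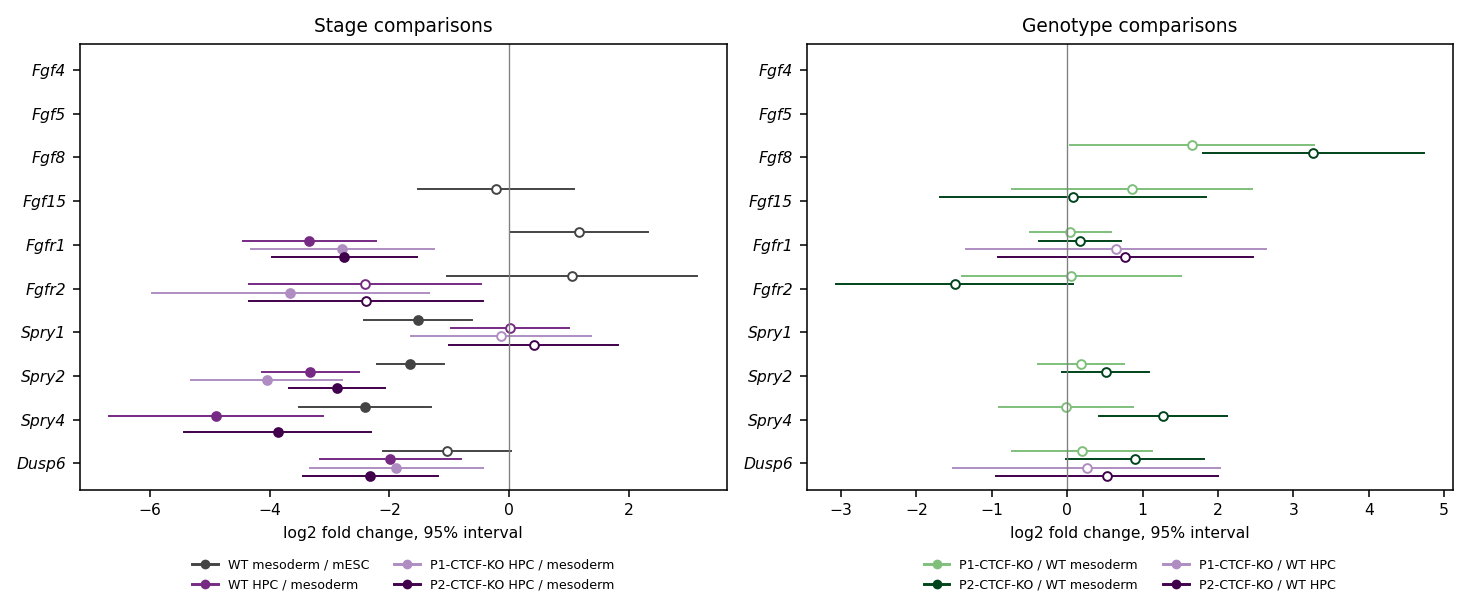
log2 fold changes with 95% intervals from edgeR for the stage comparisons (left) and the genotype comparisons (right), with filled circles for called changes and open circles for the rest. Members with a group at 0 counts are left out, since their fitted value is no estimate. Spry2, Spry4, Fgfr1 and Dusp6 lie left of 0 in each genotype from mesoderm to HPCs where drawn, and no genotype comparison has a filled circle.

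Fgfr1, Spry2, Spry4 and Dusp6 also fell between mesoderm and HPCs in the mutant clones. In P1-CTCF-KO, Fgfr1 went from 11.96 CPM in E7.1, 14.2 CPM in E7.2 and 10.4 CPM in E9.1 of mesoderm to 2.64, 0.894 and 2.03 CPM in the HPCs of these clones (log2 fold change -2.78 ± 0.73 SE, edgeR adjusted p = 0.00559). P2-CTCF-KO mesoderm had 10.2 CPM in D2.1, 17.3 CPM in D10.1 and 11.8 CPM in E9.1, and its HPCs ranged from 0.422 CPM in D2.1-2 to 4.95 CPM in D2.1 with a median of 0.768 CPM (log2 fold change -2.75 ± 0.58 SE, edgeR adjusted p = 0.00110). In both mutants the stages did not overlap. Spry4 had no count in the 3 P1-CTCF-KO HPC libraries against 129 counts in mesoderm, at least 16.5-fold lower (edgeR adjusted p = 0.00403). In P2-CTCF-KO it fell from 204 counts to 21, of which 19 lay in D2.1 (log2 fold change -3.87 ± 0.74 SE, edgeR adjusted p = 0.000673, and -6.48 without D2.1). Spry2 dropped from 97 counts to 2 in P1-CTCF-KO, both in E9.1, a ratio of 18.6 with a counting interval from 5.02 to 156.1 (edgeR adjusted p = 6.23e-05), and by a log2 fold change of -2.88 ± 0.39 (SE) in P2-CTCF-KO (edgeR adjusted p = 2.306e-05).

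Dusp6 fell by 1.88 on the log2 scale in P1-CTCF-KO (edgeR adjusted p = 0.0361) and by 2.32 in P2-CTCF-KO (edgeR adjusted p = 0.00242). The P1-CTCF-KO call was lost in 4 of the fits that left a library out, and without D2.1 the P2-CTCF-KO changes of Dusp6 and Fgfr1 were -3.07 and -3.56. Fgfr2 was lower in HPCs by a log2 fold change of -3.66 ± 1.11 (SE) in P1-CTCF-KO (edgeR adjusted p = 0.0137), from 9.69, 12.5 and 3.02 CPM in E7.1, E7.2 and E9.1 to 0, 0.671 and 1.14 CPM. That call was lost without the HPC library E7.1 (adjusted p = 0.0570) or E7.2 (adjusted p = 0.0523), and without E9.1 the change was -4.32. In P2-CTCF-KO the Fgfr2 change of -2.39 ± 0.94 (SE) was not called (edgeR adjusted p = 0.0514), but was in 13 of 29 alternatives, among them DESeq2 (adjusted p = 0.0445) and the summing of libraries of a clone (adjusted p = 0.0469), with changes from -2.73 to -1.43 over all of them. Spry1 again stayed near its mesoderm level, with log2 fold changes of -0.13 (interval from -1.64 to 1.37) in P1-CTCF-KO and 0.41 (interval from -0.9992 to 1.82) in P2-CTCF-KO. Counted together, 5 of 6 members tested were called lower in P1-CTCF-KO and 4 of 6 in P2-CTCF-KO, where 16.1% and 11.7% of 9170 genes tested were called lower and 16.6% and 16.5% higher. Spry2 and Spry4 passed the filter of this fit through mesoderm, where they were high, which leaves more room for a fall than for a rise. Whether the fall differed from that of wild type was tested as an interaction of genotype and stage. In edgeR no member was called for P1-CTCF-KO or P2-CTCF-KO, where 0% and 0.0218% of genes were called, and none had an unadjusted p under 0.05. DESeq2 called no member either, where it called 0 and 35 genes. The intervals were wide, from -1.23 to 2.45 for Fgfr1 and from -0.88 to 1.69 for Spry2 in P2-CTCF-KO on the log2 scale, so the intervals also held differences of more than 2-fold.

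Between genotypes in mesoderm, in comparisons that share their wild-type or mutant libraries, no member passed the test. For Fgf8 each P2-CTCF-KO clone lay above every other mesoderm library, while for Spry4 and Dusp6 the mean was highest in P2-CTCF-KO but single libraries of other genotypes lay within its range. Fgf8, with the values given above, was 38 counts in P2-CTCF-KO against 4 in wild type, a log2 fold change of 3.26 ± 0.66 (SE) with an interval from 1.797 to 4.73 and an unadjusted p of 0.00049 in edgeR that became 0.111 after adjustment. All 3 P2-CTCF-KO libraries lay above all 3 wild-type libraries. DESeq2 called Fgf8 (adjusted p = 0.0390), as did edgeR without a filter on low counts (adjusted p = 0.00585) and without the wild-type library C6.1 (adjusted p = 0.0432). C6.1 had the highest Fgf8 level of the wild-type clones and the lowest effective depth of the mesoderm libraries, with 1 count worth 0.121 CPM. Spry4 stood at 6.84 CPM in D2.1, 5.51 CPM in D10.1 and 3.78 CPM in E9.1, against 1.34 to 4.13 CPM in wild type, so E9.1 lay within the wild-type range (log2 fold change 1.27 ± 0.39 SE, edgeR adjusted p = 0.171). Without C6.1, again the highest wild-type library, the difference of 1.83 was called (adjusted p = 0.0294), as was that without a filter on low counts (adjusted p = 0.0242). Dusp6 was 5.16 CPM in D2.1, 4.41 CPM in D10.1 and 4.52 CPM in E9.1, each above the wild-type maximum of 4.24 CPM, with a log2 fold change of 0.90 ± 0.42 (SE, edgeR adjusted p = 0.321).

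Spry2 also lay higher without overlap, at 1.97, 2.34 and 1.85 CPM in D2.1, D10.1 and E9.1 against at most 1.63 CPM, though by 0.51 ± 0.26 (SE) on the log2 scale (edgeR adjusted p = 0.371). Thus 3 of the 7 members tested (Fgf8, Spry2 and Dusp6) were higher in P2-CTCF-KO than in wild-type mesoderm with no overlap of libraries, where 8.25% of all genes tested were, and 0 of 7 were called, where 0.0342% of genes were. Of the 7, 2 had an unadjusted p under 0.05 (Fgf8 and Spry4), and DESeq2 called 1. Fgfr2 pointed the other way, at 1.5 CPM in D2.1, 1.38 CPM in D10.1 and 5.55 CPM in E9.1 against 2.73 to 15.1 CPM in wild type (log2 fold change -1.49 ± 0.71 SE, edgeR adjusted p = 0.334). Fgfr1 differed little, by 0.17 with an interval from -0.37 to 0.72. P1-CTCF-KO mesoderm gave 0 calls among 7 members tested, where 0% of genes were called, with 1 unadjusted p under 0.05 (Fgf8, log2 fold change 1.66 ± 0.74 SE, edgeR adjusted p = 0.9999) and no DESeq2 call. In that mesoderm Spry2 ran from 1.25 to 2.02 CPM, Spry4 from 1.93 to 2.68 CPM and Dusp6 from 1.85 to 4.53 CPM, each overlapping the wild-type range. Spry1, which had too few counts to be tested between genotypes, ran from 0.247 to 1.25 CPM in P1-CTCF-KO and from 0.222 to 0.656 CPM in P2-CTCF-KO mesoderm, against 0.364 to 0.639 CPM in wild type. The other P1-CTCF-KO log2 fold changes against wild type ran from -0.01 for Spry4 to 0.86 for Fgf15. Set against P1-CTCF-KO, P2-CTCF-KO mesoderm was higher without overlap for Fgf8 (1.61 ± 0.51 SE, edgeR adjusted p = 0.314) and Spry4 (1.28 ± 0.37 SE, edgeR adjusted p = 0.256). Neither was called, nor was any other member (0% of genes, and no DESeq2 call among members), and the unadjusted p was under 0.05 for these 2.

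The summed level of the primitive streak markers was, like that of Fgf8, higher in each P2-CTCF-KO mesoderm library than in any other. Between P2-CTCF-KO and wild type, edgeR called 0 of the 6 streak markers tested, where it called 3 of 8778 genes in all. The paper, which used DESeq2, reports T and Eomes as significantly higher in P2-CTCF-KO mesoderm. The summed level of 11 streak markers was 45.2 to 75.8 CPM in P2-CTCF-KO, 2.91 to 21.1 CPM in wild-type and 5.25 to 19.4 CPM in P1-CTCF-KO mesoderm. Eomes, a T-box factor of the streak, ran from 11.99 to 25.8 CPM in P2-CTCF-KO and from 0.814 to 5.71 CPM in wild type, and T, which encodes Brachyury, from 3.55 to 5.92 CPM against 0.174 to 1.94 CPM. The 9 endothelial markers summed to 1.69 to 3.10 CPM in P2-CTCF-KO, 6.44 to 96.0 CPM in wild-type and 8.73 to 61.7 CPM in P1-CTCF-KO mesoderm. Of the streak list, Mesp2 alone had no count in wild-type and Wnt3a alone none in P1-CTCF-KO mesoderm, and of the endothelial list Emcn had none in P2-CTCF-KO. Within wild type, C6.1 was highest for the streak sum (21.1 CPM), for Fgf8 and for Spry4, and B9.3 was lowest for the streak sum (2.91 CPM), highest for the endothelial sum (96.0 CPM) and highest for Dusp6. The naive pluripotency markers summed to 21.9 to 34.9 CPM in P2-CTCF-KO, 9.76 to 25.3 CPM in wild-type and 12.7 to 27.1 CPM in P1-CTCF-KO mesoderm. Most of that sum was Tbx3, with means of 27.2, 15.2 and 16.8 CPM in these groups. Tbx3 was called higher in wild-type mesoderm than in mESCs, whereas 6 of the 8 naive markers were called lower, so the sum does not track naive cells here. The 6 cardiac markers summed to 13.5 to 17.2 CPM in P2-CTCF-KO, 3.02 to 9.38 CPM in wild-type and 5.65 to 11.3 CPM in P1-CTCF-KO mesoderm, and the 8 hematopoietic progenitor markers to 3.17 to 8.25, 6.22 to 22.9 and 6.04 to 16.1 CPM. In the same order of groups, Gata4 gave most of the cardiac sum (means of 13.99, 6.35 and 8.06 CPM). Runx1, the gene beside the deleted sites, gave most of the progenitor sum (means of 5.44, 10.7 and 8.07 CPM). The part of these markers in the genotype differences was not tested.

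**Figure D3:**
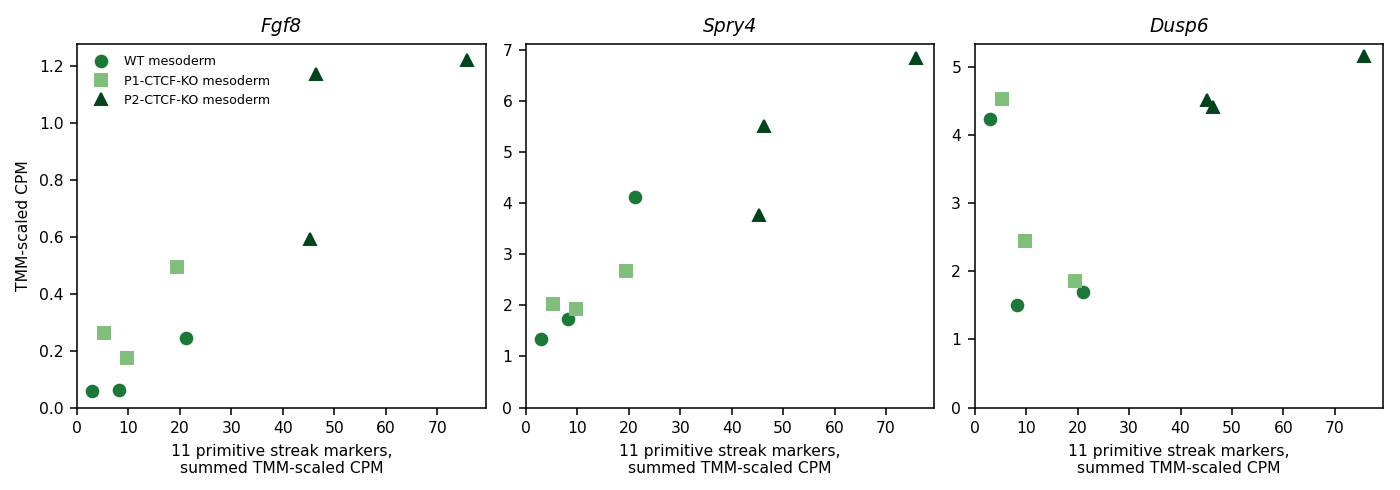
Fgf8, Spry4 and Dusp6 in the 9 mesoderm libraries (vertical axes, TMM-scaled CPM) against the summed level of 11 primitive streak markers (horizontal axes, TMM-scaled CPM), by genotype. The 3 P2-CTCF-KO libraries lie apart at 45.2 CPM or more on the horizontal axis, and the wild-type and P1-CTCF-KO libraries with the lowest streak sums have Dusp6 levels of 4.24 and 4.53 CPM.

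In HPCs the members were too low for much of a comparison between genotypes, since only Fgfr1 and Dusp6 passed the filter. Fgfr1 differed from wild type by a log2 fold change of 0.65 (interval from -1.34 to 2.64) in P1-CTCF-KO and 0.77 (interval from -0.92 to 2.46) in P2-CTCF-KO, and Dusp6 by 0.26 (interval from -1.51 to 2.03) and 0.53 (interval from -0.95 to 2.01). Between the mutants the differences were 0.12 for Fgfr1 and 0.27 for Dusp6. None of the 2 members was called in any of the 3 comparisons, none had an unadjusted p under 0.05, DESeq2 called no member, and 0%, 0% and 0% of 7422 genes were called. Library D2.1 of P2-CTCF-KO stood apart from the other HPC libraries. It held the highest level among P2-CTCF-KO HPCs of Fgf5 (0.419 CPM), Fgf8 (0.349 CPM), Fgfr1 (4.95 CPM), Spry4 (1.33 CPM) and Dusp6 (2.23 CPM), while D2.1-2, with the same clone name, had 0, 0, 0.422, 0.106 and 0.739 CPM. In D2.1 the 11 streak markers summed to 2.86 CPM, the 8 naive pluripotency markers to 4.12 CPM, the 5 primed epiblast markers to 9.56 CPM and the 9 endothelial markers to 76.9 CPM. Of the streak list 9 markers had no count in wild-type HPCs. In the other 11 HPC libraries the streak sum reached 0.380 CPM, the naive sum 0.978 CPM, the primed sum 3.55 CPM and the endothelial sum 51.1 CPM. Lef1 gave 5.86 CPM of the D2.1 primed sum and Tbx3 gave 1.88 CPM of its naive sum. Both genes were called higher in wild-type mesoderm than in mESCs, so neither sum tracks naive or primed cells here. The 8 hematopoietic progenitor markers summed to 78.4 CPM in D2.1, the lowest of the HPC libraries. The cardiac sum was 6.42 CPM in D2.1 and 7.845 CPM in D10.1. Spry4 gave 21 counts in P2-CTCF-KO against 3 in wild-type HPCs, a ratio of 5.42 with a counting interval from 1.62 to 28.4 that rests on the 19 counts of D2.1. The part of the cells behind these markers in the D2.1 levels was not tested.

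Compared per kb of the gene's whole span, introns included, Dusp6 had the highest mean of the members at each stage of wild-type cells. Its libraries lay above those of every other member in mesoderm only. In mESCs, Dusp6 had a mean level of 1.23 CPM per kb, followed by Fgf4 (1.08), Spry2 (0.945), Spry4 (0.796) and Spry1 (0.331), with the receptors at 0.0921 (Fgfr1) and 0.0374 (Fgfr2). Mesoderm kept Dusp6 at the head (0.583 CPM per kb), then Spry2 (0.301), Fgfr1 (0.209), Spry4 (0.159) and Spry1 (0.111). In HPCs the order was Dusp6 (0.161 CPM per kb), Spry1 (0.113), Spry2 (0.0296), Fgfr1 (0.02004), Fgfr2 (0.0139) and Spry4 (0.00635), and the 4 ligands had no counts. Libraries overlapped between Dusp6 and Fgf4 in mESCs, between Fgfr1, Spry4 and Spry1 in mesoderm, and, in HPCs, between Dusp6 and Spry1 and among Spry2, Fgfr1, Fgfr2 and Spry4, so the order of these neighbours is not resolved. Since reads over introns count as well, the receptors with their long introns collect CPM that the short Sprouty and Dusp6 genes do not. Division by the whole span (104.4 kb for Fgfr2 against 4.26 kb for Dusp6) in turn weighs introns and exons alike. Long and short genes are therefore not strictly on a common scale, in CPM or per kb.

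Over the 21 mesoderm and HPC libraries, the 5 members other than Spry1 that were tested had positive correlations with each other, from 0.519 (Fgfr2 with Dusp6) to 0.894, which describes libraries that share their stages and clones and is not a test. The Pearson r of log2 CPM was highest for Spry2 and Spry4, at 0.894, and was 0.613 for Fgfr2 and Spry4, whereas Spry1 had r from -0.102 to 0.0981 with the other 5 members tested. Among 9170 genes, those most like Fgfr1 were Arhgef17 (r = 0.977), Il17rd (0.970), itself an inhibitor of FGF signalling, and Yap1 (0.970). Spry4 was most like Rgma (0.969), Eomes (0.965) and Wnt3 (0.960), and Spry2 most like Fgd1 (0.958), Prtg (0.947) and Gldc (0.943). For Dusp6 they were Trib1 (0.931), Zfp652 (0.900) and P4hb (0.896), for Fgfr2 Sema5a (0.912), Zbtb7c (0.890) and Lamb2 (0.888), and for Spry1 Per1 (0.797), Phc2 (0.787) and Rac1 (0.764).

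Of 68 other pathway genes tested, 11 were higher and 8 lower in wild-type mesoderm than in mESCs, where 10.8% and 13.6% of all genes were, so these counts lay near the background. In HPCs 3 were higher and 21 lower than in mesoderm, where 10.8% and 12.5% of all genes were. Among 14 other secreted ligands, 6 were tested, of which 2 were higher in mesoderm and 2 lower. Fgf10, a ligand of mesenchyme and heart fields, rose from a mean of 0.204 to 4.71 CPM (edgeR adjusted p = 0.00354), and Fgf3 from 0.0262 to 1.15 CPM (edgeR adjusted p = 0.00430). Fgf17, of the same subfamily as Fgf8, had 2 counts in mesoderm against 332 in mESCs, a ratio of 24.5 with a counting interval from 6.73 to 203.1, and Fgf1 fell by 3.12 on the log2 scale (edgeR adjusted p = 0.0201). In HPCs, Fgf3 was at least 13.8-fold lower than in mesoderm, and Fgf2, the basic FGF that was also added to the culture, had 19 counts against 2 (ratio 9.61, counting interval from 2.32 to 85.1, edgeR adjusted p = 0.0266). The median log2 fold change of the tested ligands was 0.29 into mesoderm and -1.01 into HPCs (-0.53 with genes at 0 set to their bound), beside -0.18 and -0.01 over all genes.

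Of the other 5 receptors and co-receptors, 2 were tested. Fgfr3 rose in mesoderm by a log2 fold change of 2.23 (edgeR adjusted p = 0.0163), and Fgfrl1, a receptor without a kinase domain, fell by 2.99 in HPCs (edgeR adjusted p = 0.00811). The 2 intracellular FGF homologous factors tested, of 4, were called in neither step. Heparan sulfate genes, 15 of 15 tested, split into 1 higher and 4 lower in mesoderm and 1 higher and 7 lower in HPCs, with medians of 0.41 and -1.55. Gpc4, a glypican that carries heparan sulfate, fell by 2.83 into mesoderm (edgeR adjusted p = 0.000279) and rose by 3.98 into HPCs (edgeR adjusted p = 1.809e-05). Sulf1, which removes sulfates that FGF binding needs, fell by 4.97 into HPCs (edgeR adjusted p = 5.847e-05), and Ndst1, which adds sulfates, rose by 1.38 and then fell by 1.75 (edgeR adjusted p = 0.00373 and 0.000295). The 21 transducers from RAS to ERK, all tested, gave 5 calls into mesoderm and 4 into HPCs. Into mesoderm 4 rose, among them the adaptor Gab2 (5.17) and the scaffold Ksr1 (2.66), and 1 fell (Hras, -1.61), and into HPCs the phosphatase gene Ptpn11 rose (1.63) and 3 fell, with Plcg1 (-1.41) and Mapk3 (-1.31), which encodes ERK1, the clearest. Their medians were 0.25 and 0.38.

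Among inhibitors outside the members and transcription factors downstream of ERK, every call from mesoderm to HPCs in wild type was a fall. Of all genes tested in that step, 12.5% were called lower and 10.8% higher. Etv1 and Dusp9, with 0 and 2 HPC counts, passed the filter through earlier stages, which leaves more room for a fall than for a rise. In P1-CTCF-KO the inhibitor gene Rasa1 was called higher in HPCs (edgeR adjusted p = 0.00606). Of 12 other feedback inhibitors tested, 2 rose into mesoderm (Nf1, which switches RAS off, by 1.67, and Dusp7 by 1.43) and none fell. Into HPCs none rose and 5 fell, led by the ERK phosphatase gene Dusp9 with 2 counts against 74 (ratio 36.6, counting interval from 9.78 to 307.7) and Il17rd (-4.66, edgeR adjusted p = 0.00130), with a median of -1.16. Among 10 ERK-responsive transcription factors tested, 1 rose into mesoderm (Myc, by 1.52) and 1 fell (Etv5, by 2.47, edgeR adjusted p = 0.000863), and into HPCs none rose and 4 fell, with a median of -1.29. Etv1 was at least 23.4-fold lower in HPCs, and Etv5, a factor that ERK signalling induces, had a further log2 fold change of -3.76 (edgeR adjusted p = 0.000173). From mesoderm to HPCs the 56 pathway genes tested gave 6 higher and 14 lower in P1-CTCF-KO (16.6% and 16.1% of all genes) and 6 higher and 18 lower in P2-CTCF-KO (16.5% and 11.7% of all genes). Between genotypes, 0 of 57 pathway genes in mesoderm and 0 of 43 in HPCs were called by edgeR in each comparison.

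Fewer of the 10 genes had a promoter peak in the HPC list than in the mesoderm list, as held for all genes. A promoter peak was present in mesoderm for 8 of 10 members (all but Fgf4 and Fgf8), where 55.2% of 24942 genes had one, in HPCs for 5 of 10 (Fgf5, Fgfr1, Fgfr2, Spry2 and Dusp6), where 37.1% did, and in the CTCF list for 3 of 10 (Fgf15, Fgfr2 and Spry1), where 12.8% did. The CTCF list came from ChIP-seq of 416B, a mouse myeloid progenitor line, and not from the differentiating cells. Within 20 kb of the 5′ end or inside the gene there were 42 mesoderm and 13 HPC peaks. Of the mesoderm peaks 8 overlapped an HPC peak (19%, against 25.8% of the whole list), and of the HPC peaks 8 overlapped a mesoderm peak (61.5%, against 69.4%). Fgf8, which had no promoter peak in either list, had 3 mesoderm peaks upstream, centred at -4526, -4721 and -6736 bp from its 5′ end, and 2 beyond its 3′ end, and none in the HPC list. Spry4 had its promoter peak, centred at -814 bp, as the only mesoderm peak in reach and none in HPCs. Fgf5 kept a promoter peak in both lists although its RNA had no count in wild-type mesoderm or HPCs.

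**Figure D4:**
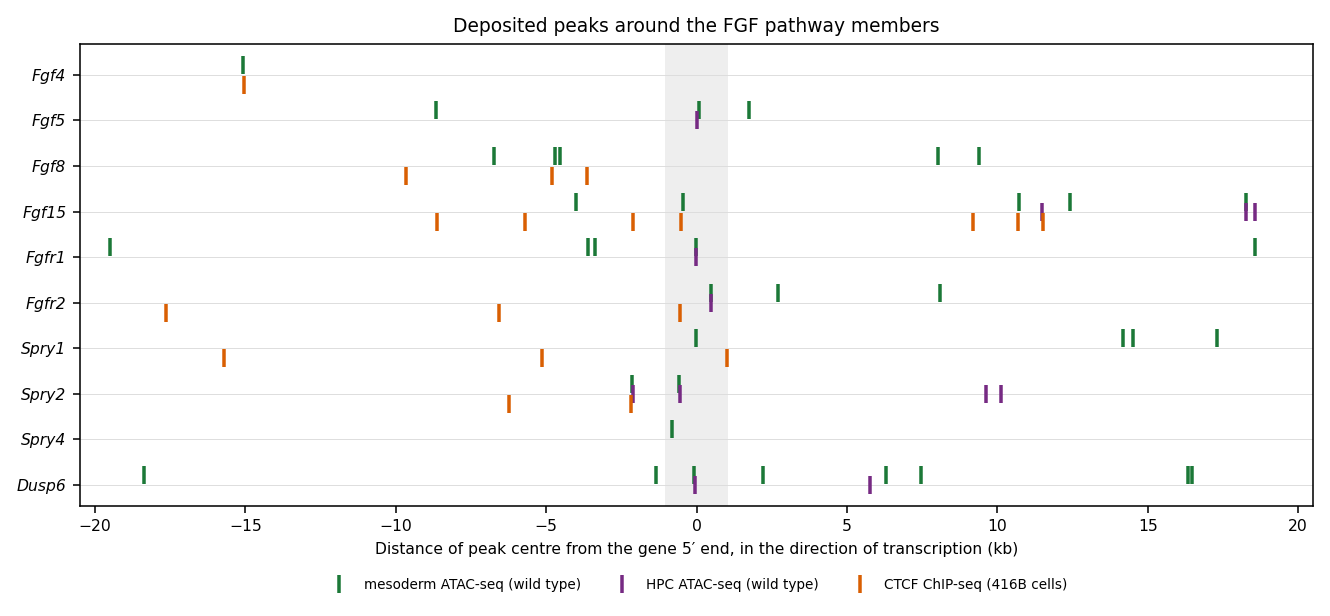
Positions of deposited peaks within 20 kb of each gene's 5′ end, in kb along the direction of transcription, with the 1 kb on either side shaded. Ticks mark peak centres in the mesoderm ATAC-seq list (green), the HPC ATAC-seq list (purple) and the CTCF list of 416B cells (orange), and 8 genes have a green tick in the shaded band but 5 a purple one.

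The letters of the CTCF peaks are shown for Spry1 and Fgfr2 because the series concerns CTCF sites near promoters, and at these genes the centre of the promoter peak lies outside annotated exons, in an intron of Spry1 and upstream of Fgfr2. The lines give the central 100 bases in mm9 on the gene's strand, 5′ to 3′, at chr3:37539820-37539919 for Spry1 and chr7:137410821-137410920 (minus strand) for Fgfr2. Capitals mark the letters AGGNGGC on either strand, used here as a simplified stand-in for the CTCF core.
Spry1 CTCF: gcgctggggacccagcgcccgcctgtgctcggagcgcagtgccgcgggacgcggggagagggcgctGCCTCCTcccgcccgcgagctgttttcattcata
Fgfr2 CTCF: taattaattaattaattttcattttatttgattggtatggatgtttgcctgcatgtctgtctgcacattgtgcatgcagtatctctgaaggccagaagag
The letters AGGNGGC were found in the central 200 bases of 2 of the 3 peaks (Fgf15 and Spry1) and in 33.1% of all 44512 CTCF peaks searched. Most CTCF peaks thus lack these letters at their centre, so the capitals need not mark the bases that CTCF binds. In the 250 bases upstream of the 5′ end, the ETS core CCGGAA on either strand was found for 2 of 10 members (Fgf5 and Spry4) and for 14.2% of 24942 genes, and the AP-1 letters TGANTCA for none of the 10 and for 6.23% of genes. These are matches of letters, with no measurement of binding in the cells studied here.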

How the data were processed

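Poly(A)-minus RNA of 23 libraries had been sequenced, aligned to mm9 with STAR and freed of PCR duplicates by the authors, who deposited whole-number counts per gene from featureCounts over exons and introns. The annotation is not given in the sources used here. The deposited peak lists hold start and end positions in mm9 and were called by the authors with MACS2 on merged ATAC-seq libraries and on CTCF ChIP-seq of 416B cells. Gene coordinates are those of the count table, whose starts lie 1 base before the annotated start. Of 132 samples in the series, those of other assays were not used here.

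Groups came from the sample labels. Counts as deposited were tested with edgeR 4.0.16 (limma 3.58.1, R 4.3.3) by the quasi-likelihood test with TMM factors and a filter at 10 counts, in separate fits of 9 wild-type libraries (mESC, mesoderm, HPC), 9 mesoderm libraries, 12 HPC libraries and 21 mesoderm and HPC libraries (mutant stage steps and interactions). P-values were adjusted over all genes tested. Intervals are at the 95% level. Against a group without counts, folds were set at a floor of 3 counts over the group, and a group of 1 to 3 counts was given as a ratio with an exact counting interval. These floors and counting intervals cover counting error only. Entries of ribosomal RNA or several loci (186) stayed in the fits. Of the 25146 genes, 5413 had no count. Every pair of libraries in a group differed by more than sampling noise. Scripts were tested on simulated data. Alternatives were DESeq2 1.42.0, other size factors, no filter, a fit of all 23 libraries, summed technical replicates or libraries of a clone, a replicate block and leaving out each library. Clone names pair mesoderm and HPC libraries within a genotype, and deviations of same-clone libraries correlated between -0.0731 and 0.219 over 4585 genes. Some libraries come from the same clone, so p-values measure the spread between these libraries, which may be partly technical. Named genes outside the members were at most the 2 higher and 2 lower calls with the smallest adjusted p of each pathway list, 2 examples of a marker list and, for likeness, the 3 highest correlations. The members and lists were chosen with earlier results of these data known.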

Additional observations from a re-analysis of the deposited data

Results flagged for a closer look

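The 2 groups of 4 or 5 libraries, wild-type and P2-CTCF-KO HPCs, gave 13 sets of values of 1 gene in 1 group. In 6 of them 1 library lay far from the others by Dixon's criterion, which chance meets in about 1 in 20 sets of normally distributed values. The sets share libraries, 4 of the 6 come from D2.1, and the rate does not hold for sets that are mostly at 0 counts. In P2-CTCF-KO HPCs, library D2.1 stood out for Fgf5 at 0.419 CPM (6 counts, with 0 in the others), for Fgf8 at 0.349 CPM (next 0.0969 CPM), for Spry4 at 1.33 CPM (next 0.106 CPM) and for Dusp6 at 2.23 CPM (next 0.769 CPM). In the same group, D10.1 stood out for Spry1 at 1.45 CPM, from 15 counts (next 0.349 CPM). In wild-type HPCs, B9.3 stood out for Fgfr2 at 5.15 CPM, from 60 counts (next 0.394 CPM).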

How the results depend on the processing

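Of the member calls in stage comparisons, that of wild-type mesoderm against mESCs was the least stable. Its 5 calls became 3 without the first and 2 without the second mESC library (range 2 to 6 over single libraries left out) and 2 with the technical replicates summed. From mesoderm to HPCs, leaving out single libraries gave 4 to 6 calls in wild type, 3 to 5 in P1-CTCF-KO and 4 to 5 in P2-CTCF-KO, and P2-CTCF-KO rose from 4 to 7 calls with DESeq2, with no filter on low counts and with libraries of a clone summed. The P2-CTCF-KO against wild-type mesoderm count of 0 became 1 with DESeq2, 2 with no filter and 0 to 2 without single libraries, and P2-CTCF-KO against P1-CTCF-KO became 1 with no filter (Spry4, adjusted p = 0.0281). With the clone as a replicate block, which follows the pairing of stages, calls stayed at 5, 5 and 4 and interactions at 0 and 0, and the block changed no member call. Of 67 log2 fold changes recomputed, 23 turned sign under at least 1 alternative, none of them called, and they are given here as ranges over single libraries left out. From mESCs to mesoderm in wild type, Fgf15 ran from -0.56 to 0.31, and from mesoderm to HPCs Spry1 ran from -0.42 to 0.20 in wild type (-0.029 with DESeq2, -0.027 with RLE factors) and from -0.57 to 0.69 in P1-CTCF-KO (0.0027 with the replicate block). For P1-CTCF-KO against wild-type mesoderm, Fgfr1 ran from -0.13 to 0.27, Fgfr2 from -0.38 to 0.92, Spry2 from -0.0025 to 0.32, Spry4 from -0.31 to 0.54 (0.0058 with no filter) and Dusp6 from -0.28 to 0.87. For P2-CTCF-KO mesoderm against wild type, Fgf15 ran from -1.47 to 0.47 (-0.024 with DESeq2) and Fgfr1 from -0.091 to 0.39, and against P1-CTCF-KO Fgfr1 from -0.13 to 0.28. In HPCs, Dusp6 ran from -0.31 to 0.60 for P1-CTCF-KO and Fgfr1 from -0.061 to 1.85 for P2-CTCF-KO against wild type, and between the mutants Fgfr1 from -0.69 to 0.44 and Dusp6 from -0.087 to 0.81. Of the P1-CTCF-KO interactions, Fgfr2 ran from -2.06 to 1.45, Spry1 from -0.55 to 0.66 (0.014 with the replicate block), Spry4 from -3.59 to 0.063 and Dusp6 from -0.58 to 0.75. Of the P2-CTCF-KO interactions, Fgfr1 ran from -0.20 to 1.71, Fgfr2 from -0.84 to 2.71 (-0.017 with no filter, -0.031 without ribosomal and multi-locus entries), Spry4 from -1.68 to 3.98 and Dusp6 from -1.09 to 0.31. Over all genes, 3146 calls between mESCs and mesoderm (1389 higher, 1757 lower) became 1091 without either mESC library, 1139 with them summed, and 1577 higher and 1146 lower with DESeq2. P2-CTCF-KO against wild-type mesoderm went from 3 to 166 with DESeq2, 431 with no filter, 18 with all libraries in 1 fit and 127 without wild-type C6.1, against P1-CTCF-KO from 0 to 83, 267 and 5, and in HPCs P2-CTCF-KO against P1-CTCF-KO from 0 to 259 without D10.1. The P2-CTCF-KO interaction went from 2 to 35 with DESeq2, and its stage step from 1516 higher and 1072 lower to 1519 and 1615 with no filter. The cause was not tested. Depth limits genes with few counts after day 0, among them Fgf4, Fgf5, Fgf8 and Fgf15 and, in HPCs, Spry2 and Spry4.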
